A study of Rattus norvegicus with 42 samples.

Results

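The airway secretory and mucin genes were 8 genes, Scgb1a1, Scgb3a2, Scgb3a1, Cyp2f4, Bpifa1, Agr2, Muc5b and Muc5ac, chosen by symbol from the 30044 symbols shared by the count tables of 3 and 9 months. All 8 were listed in both tables, and 7 passed the filter on low counts at each time point. Muc5ac did not pass at either time. The study asked what a high-fat diet does to the lung toxicity of inhaled silica. RNA came from pieces of lung of 42 male Fischer 344 (F344/DuCrl) rats, which were bought at 3 months of age. After 2 weeks on a diet with 18% (regular) or 60% (high-fat) of its energy as fat, they breathed air or crystalline silica at 15 mg/m3 by whole-body inhalation, for 6 hours a day on 5 days, and stayed on their diet. Silica-exposed and air-exposed rats of each diet were killed 3 or 9 months after exposure. The groups at 3 months were regular diet air (4 rats), regular diet silica (5), high-fat diet air (5) and high-fat diet silica (5), and those at 9 months held 6, 5, 6 and 6 rats in that order. Rats are numbered within each group.

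Secretory cells share the lining of the conducting airways with ciliated cells. Club cells of the small airways release the secretoglobins Scgb1a1 (club cell secretory protein) and Scgb3a2 and carry cytochrome P450 enzymes such as Cyp2f4, which activates inhaled naphthalene. The secretoglobin Scgb3a1 and Bpifa1, an antimicrobial surface-active protein, are typical of the larger airways. Muc5b and Muc5ac are the gel-forming mucins of airway mucus, and Agr2 is a protein of the endoplasmic reticulum needed to assemble them. Gas-exchange tissue lacks these cells apart from the ends of the bronchioles, so a piece of lung holds more or less of their RNA depending on how much airway it includes. In bulk tissue, fewer cells of a type and less RNA per cell cannot be told apart.

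The libraries of 3 months held 5143424 to 8259635 counts each, and those of 9 months 3078216 to 8319382. The 10 surfactant and other alveolar type 2 genes checked against the lung label were detected in every group and summed to between 15400 and 39900 CPM per rat (CPM, the usual depth-scaled count, here relative to TMM-adjusted library sizes). The ciliated cell list, 27 of whose 30 genes were in the tables, was detected in every rat, with Rsph4a listed at 0 in all 8 groups. Ribosomal RNA, here only the counts under the symbols Rnr1 and Rnr2, took 0.959% to 1.26% of counts in the groups at 3 months. Its share at 9 months was 1.22% in regular diet air, 3.67% in regular diet silica, 6.22% in high-fat diet air and 7.66% in high-fat diet silica.

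Single rats of one group differed widely in these genes, and by very different amounts from gene to gene. At 3 months the SD between rats within groups, on the log2 CPM scale (prior count 2), was 2.75 for Bpifa1, the widest of all 15234 tested genes, and 2.31 for Scgb3a1, the 4th widest. It was 1.58 for Muc5b (rank 20), 1.05 for Cyp2f4 (rank 81), 0.86 for Agr2 (rank 116), 0.58 for Scgb3a2 (rank 382) and 0.32 for Scgb1a1 (rank 2686). The median over all tested genes was 0.16. The order was the same at 9 months and the SDs were smaller. They were 1.92 for Bpifa1 (rank 15 of 15276), 1.39 for Scgb3a1 (rank 68), 1.06 for Muc5b, 0.67 for Cyp2f4 (rank 301), 0.65 for Agr2 (rank 332), 0.41 for Scgb3a2 (rank 1530) and 0.28 for Scgb1a1 (rank 3758), against a median of 0.17. Differences between rats of the same group made up 69.6% to 92.9% of the variance of each of the 7 genes at 3 months and 45.4% to 85.7% at 9 months. This share was not computed for all tested genes. In a design of few groups it is high for any gene whose groups do not differ. Low counts add to the spread of Bpifa1, which had 0 to 891 counts per rat, and do not touch Scgb1a1, which had at least 6672.

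**Figure D1:**
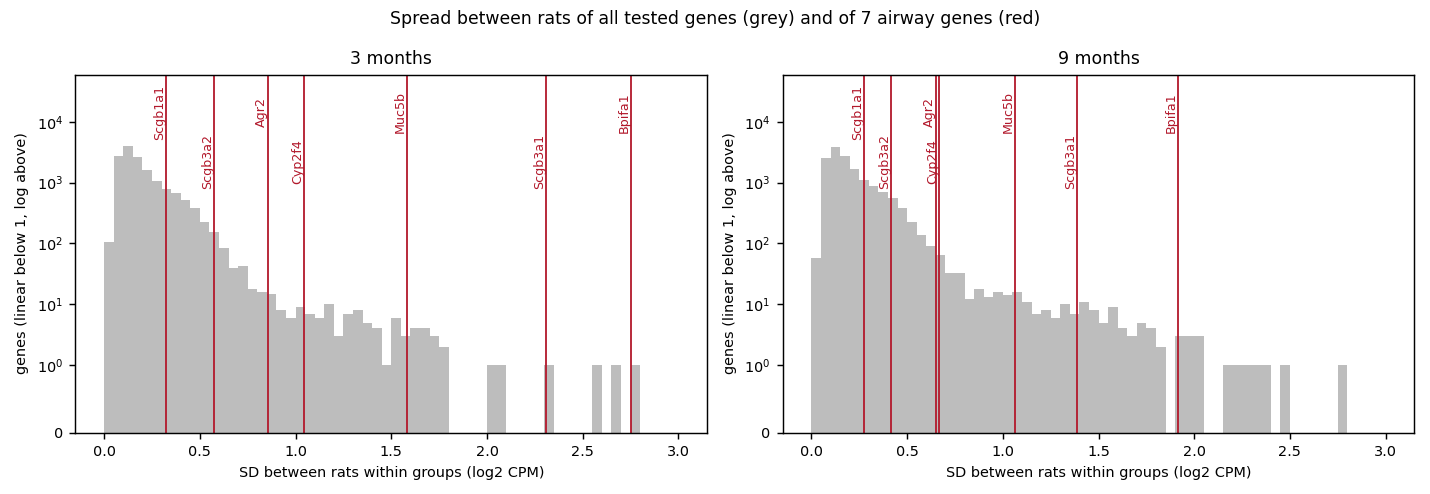
Histogram of the SD between rats within groups (x axis, log2 CPM) over all tested genes at 3 and 9 months (y axis, number of genes, logarithmic above 1). Red lines mark the 7 tested airway genes, which run from 0.32 (Scgb1a1) to 2.75 (Bpifa1) at 3 months.

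Scgb1a1 varied least. At 3 months the regular diet air rats 1 to 4 had 2283, 1972, 3310 and 2859 CPM, and the regular diet silica rats 1 to 5 had 2324, 2173, 1515, 1540 and 1904 CPM. On the high-fat diet the air rats 1 to 5 had 2743, 2061, 1708, 1522 and 2461 CPM and the silica rats 1 to 5 had 1256, 2312, 1698, 1889 and 1947 CPM. The ranges of the 4 groups overlapped, with the lowest rat under silica on the high-fat diet and the highest in air on the regular diet. At 9 months the lowest, median and highest rats in regular diet air had 1576, 2386 and 2859 CPM, and the regular diet silica rats 1 to 5 had 2543, 1632, 1862, 1552 and 2639 CPM. In high-fat diet air the lowest, median and highest rats had 2539, 3353 and 4739 CPM, and in high-fat diet silica 2280, 2515 and 2877 CPM. Ordered by their means at 9 months, high-fat diet air came first with 3440 ± 716 CPM (SD, n = 6), before high-fat diet silica with 2541 ± 251 (n = 6), regular diet air with 2345 ± 426 (n = 6) and regular diet silica with 2046 ± 512 (n = 5). Only the step from the first to the next was wider than the larger SD of its neighbours.

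Scgb3a2, the other secretoglobin of small airways, spread more. At 3 months it had 123.4, 108.3, 226.1 and 133.1 CPM in regular diet air rats 1 to 4 and 164.9, 119.6, 60.6, 59.9 and 99.8 CPM in regular diet silica rats 1 to 5. High-fat diet air rats 1 to 5 had 149.3, 79.3, 73.4, 58.8 and 122.03 CPM and high-fat diet silica rats 1 to 5 had 46.6, 145.8, 80.5, 106.8 and 106.7 CPM. The 4 groups overlapped, and the highest rat of each group was also its highest for Scgb1a1. The lowest, median and highest rats at 9 months had 54.8, 102.5 and 130.2 CPM in regular diet air, 72.9, 103.9 and 122.7 CPM in high-fat diet air, and 38.4, 63.5 and 86.2 CPM in high-fat diet silica. The regular diet silica rats 1 to 5 had 102.2, 50.7, 50.2, 40.6 and 72.1 CPM, so that rat 1 lay within the air range and 3 of the 5 lay below every air rat on that diet. The group means at 9 months fell into 2 pairs, 101 ± 29.4 (SD, n = 6) and 101 ± 16.6 CPM (n = 6) in air and 63.1 ± 24.7 (n = 5) and 64.2 ± 15.6 CPM (n = 6) with silica, on the regular and the high-fat diet. Within each pair the diets differed by far less than the SDs.

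Cyp2f4, the P450 enzyme of club cells, had 42.9, 30.0, 101 and 62.4 CPM in regular diet air rats 1 to 4 at 3 months and 66.9, 37.9, 16.5, 17.2 and 51.2 CPM in regular diet silica rats 1 to 5. High-fat diet air rats 1 to 5 had 102, 21.6, 31.0, 13.1 and 60.1 CPM, and high-fat diet silica rats 1 to 5 had 9.45, 96.0, 46.4, 49.3 and 52.1 CPM. The highest rat thus had 10.2 times the level of the lowest in the last of these groups, and 3.36 to 7.80 times in the other three. In the rats of 9 months the lowest, median and highest levels were 15.5, 37.9 and 56.6 CPM in regular diet air, 32.8, 63.9 and 77.2 CPM in high-fat diet air, and 14.9, 40.3 and 55.3 CPM in high-fat diet silica. The 5 regular diet silica rats ran from 14.8 to 69.1 CPM, a range that held the whole of the regular diet air range. The mean was highest in high-fat diet air, 59.7 ± 17.2 CPM (SD, n = 6), and the other three lay between 33.6 and 38.2 CPM, closer to each other than their SDs.

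Scgb3a1, the secretoglobin of larger airways, and Bpifa1 showed the widest ranges. Scgb3a1 had 10.2, 2.80, 64.2 and 50.8 CPM in regular diet air rats 1 to 4 at 3 months and 89.95, 7.84, 1.86, 4.51 and 41.0 CPM in regular diet silica rats 1 to 5. High-fat diet air rats 1 to 5 had 80.8, 1.95, 2.55, 1.07 and 20.3 CPM, and high-fat diet silica rats 1 to 5 had 1.89, 122.5, 49.9, 6.79 and 52.1 CPM. Each group held rats under 3 CPM and rats over 60 CPM, and the highest rat had 22.9 to 75.9 times the level of the lowest. The ratio of highest to lowest at 9 months was 7.75 to 26.9, with 3.59 to 27.8 CPM in regular diet air, 2.58 to 69.4 CPM in regular diet silica, 5.66 to 60.9 CPM in high-fat diet air and 4.93 to 52.8 CPM in high-fat diet silica. The 4 means, 9.98 ± 9.24 (SD, n = 6), 21.8 ± 27.8 (n = 5), 29.3 ± 20.5 (n = 6) and 32.8 ± 18.999 CPM (n = 6) in that order, were separated by less than the larger SD of their neighbours.

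Bpifa1 had 1.55, 14.5, 42.2 and 53.9 CPM in regular diet air rats 1 to 4 at 3 months and 79.8, 11.4, 4.82, 17.6 and 18.9 CPM in regular diet silica rats 1 to 5. In high-fat diet air it had 98.1 CPM in rat 1 and 1.79, 3.28, 0.761 and 2.68 CPM in rats 2 to 5, a ratio of 128.9 between the highest and the lowest rat. High-fat diet silica rats 1 to 5 had 0 counts and 130.5, 30.9, 0.179 and 45.4 CPM. A count of 0 in that rat allows up to 3 counts, 0.47 CPM, so rats of this group ran from 0.179 CPM or less to 130.5 CPM. The lowest, median and highest rats at 9 months had 0 counts, 1.71 and 16.3 CPM in regular diet air, 0.148, 10.35 and 19.2 CPM in high-fat diet air, and 1.14, 2.68 and 23.5 CPM in high-fat diet silica. Regular diet silica rats 1 to 5 had 53.8, 0.517, 2.55, 3.69 and 21.1 CPM, and all 4 groups overlapped.

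The mucin Muc5b had 11.2, 5.45, 42.6 and 56.9 CPM in regular diet air rats 1 to 4 at 3 months and 69.2, 10.04, 5.44, 7.52 and 32.4 CPM in regular diet silica rats 1 to 5. High-fat diet air rats 1 to 5 had 49.9, 5.52, 6.56, 4.57 and 19.1 CPM, and high-fat diet silica rats 1 to 5 had 4.88, 123.3, 37.5, 13.4 and 57.1 CPM. Each group held at least 1 rat near 5 CPM, and its highest rat had 10.4 to 25.3 times that level. At 9 months the lowest, median and highest rats had 4.89, 12.9 and 35.4 CPM in regular diet air, 10.4, 26.8 and 96.7 CPM in high-fat diet air, and 15.5, 45.6 and 59.8 CPM in high-fat diet silica, while regular diet silica rats 1 to 5 had 112.7, 15.2, 30.4, 11.7 and 26.5 CPM. The 3 means other than that of regular diet air (14.7 ± 11.03 CPM, SD, n = 6) lay between 37.2 and 42.0 CPM, closer than their SDs. The other gel-forming mucin, Muc5ac, was barely detected. It had 0 to 7 counts per rat, and summed over the rats of a group 1, 4, 1 and 9 counts at 3 months and 2, 6, 3 and 4 counts at 9 months (regular diet air, regular diet silica, high-fat diet air, high-fat diet silica). It was at 0 counts in 23 rats, which allows between 0.36 and 0.65 CPM each. Without the filter on low counts it was not called in any of the 12 comparisons (edgeR quasi-likelihood test, adjusted p = 0.227 to 1).

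Agr2, the mucin-folding protein, had 7.34, 4.98, 18.4 and 14.3 CPM in regular diet air rats 1 to 4 at 3 months and 20.3, 6.32, 3.34, 4.51 and 8.98 CPM in regular diet silica rats 1 to 5. High-fat diet air rats 1 to 5 had 11.8, 5.20, 5.28, 3.20 and 7.20 CPM, and high-fat diet silica rats 1 to 5 had 2.52, 16.0, 6.47, 7.503 and 9.29 CPM. The highest rat of a group had 3.69 to 6.34 times the level of the lowest. The levels of the lowest, median and highest rats at 9 months were 4.53, 9.30 and 11.9 CPM in regular diet air, 6.68, 10.7 and 14.2 CPM in high-fat diet air, and 4.18, 9.54 and 10.5 CPM in high-fat diet silica. Regular diet silica rats 1 to 5 had 14.7, 1.90, 7.49, 2.77 and 7.92 CPM, the widest range of the 4 groups, and neighbouring means were closer than the larger of their SDs.

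**Figure D2:**
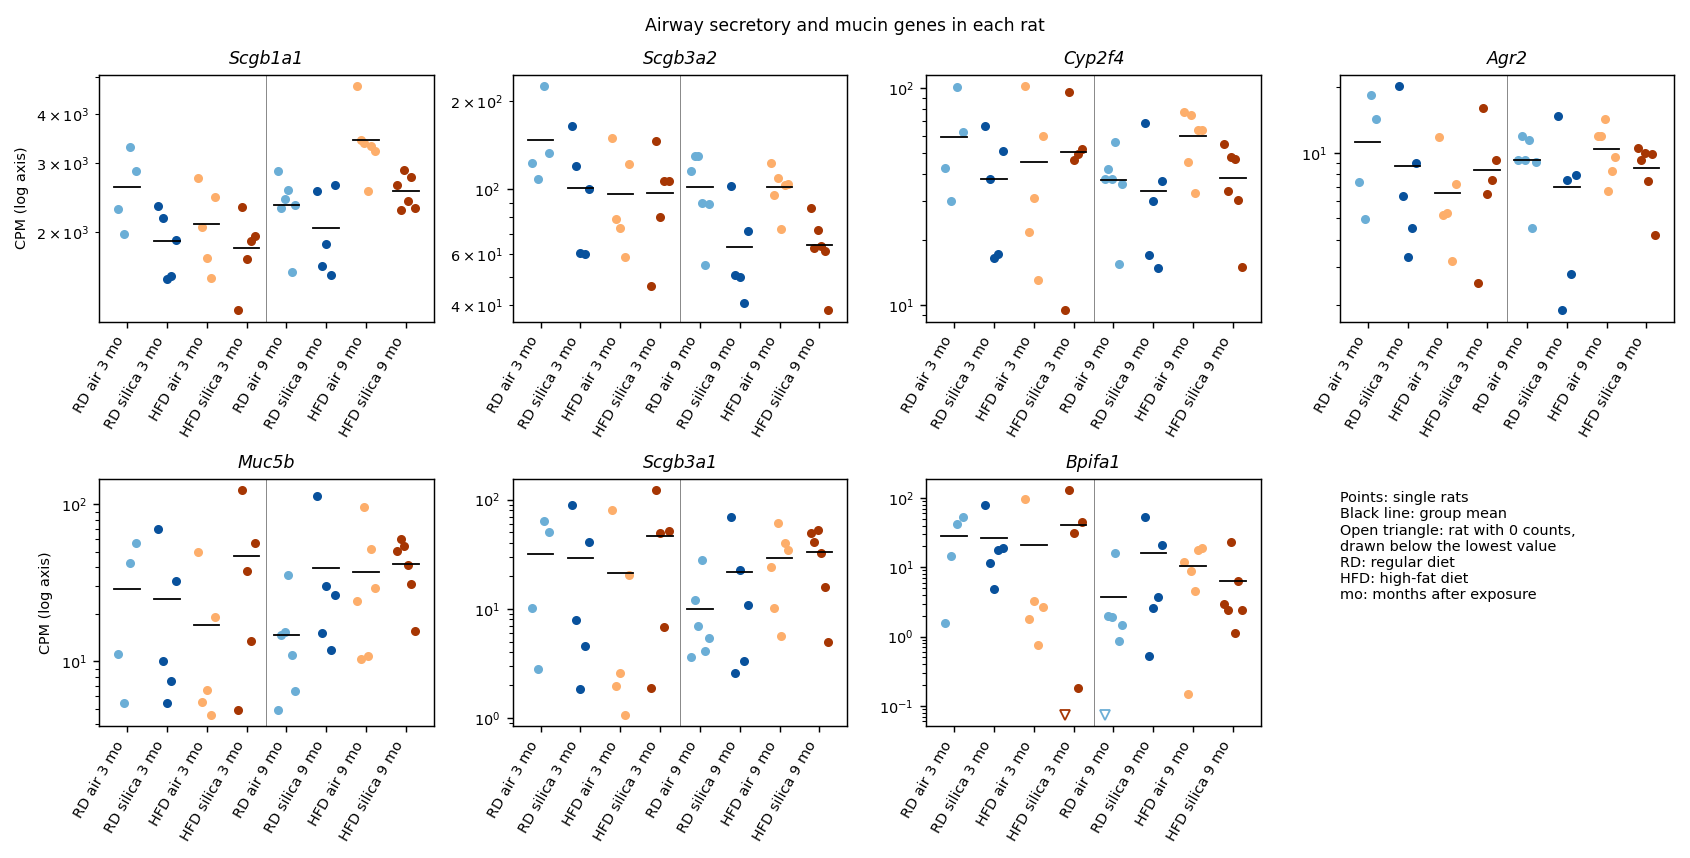
Level of 7 airway genes in each of 42 rats (y axis, CPM, logarithmic) by group (x axis), with black lines at the group means and open triangles for rats with 0 counts. Within a group Scgb1a1 varied at most 1.87-fold between rats, and Bpifa1 ran from 0.761 to 98.1 CPM in high-fat diet air at 3 months.

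At 3 months regular diet air had the highest mean of Scgb1a1, Scgb3a2, Cyp2f4 and Agr2, and high-fat diet silica that of Muc5b, Scgb3a1 and Bpifa1. For each of the 7 genes, neighbours in the order of the 4 means at 3 months differed by less than the larger of their SDs.

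The same rats stood at the extremes for most of the 7 genes, above all at 3 months. In high-fat diet air rat 1 was highest and rat 4 lowest for all 7 genes, and in high-fat diet silica rat 2 was highest and rat 1 lowest for all 7. Regular diet silica rat 1 was highest for 7 and rat 3 lowest for 6, and regular diet air rat 3 was highest for 5 and rat 2 lowest for 6. In each group of 9 months the same rat was highest for 3 to 6 of the 7 genes and lowest for 4 or 5. Over the 21 gene pairs, Pearson's r of the rats' deviations from their group means was 0.64 to 0.983 with a median of 0.902 at 3 months (19 rats) and 0.325 to 0.920 with a median of 0.691 at 9 months (23 rats). These values are descriptions across rats that share a library for all genes. The tightest pair at both times was Scgb3a1 with Muc5b, at 0.983 and 0.920.

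The bases before the start sites are shown for the members of smallest and widest spread. Whether they bear on the shared movement across rats was not tested. RefSeq promoters (GRCr8, a later build than that of the counts) were found for 6 of the 8 genes. Muc5b and Muc5ac had no entry. A forkhead motif, which FOXA factors of airway and gut epithelium bind, was searched as TNTTTAC or TNTTTGC on both strands of the 250 bases before each start. It occurred in 4 of the 6 genes (Scgb1a1, Scgb3a1, Bpifa1 and Agr2) and in 22.9% of 33469 promoters. Scgb1a1 held 2 matches, from 136 to 130 and from 108 to 102 bases before the start, Scgb3a1 held 1 from 107 to 101, Bpifa1 1 from 145 to 139 and Agr2 1 from 198 to 192. Cyp2f4 and Scgb3a2 held none. The NKX2-1 letters CAAGTG occurred in 2 of the 6 against 11.7% of promoters, the TATA letters TATAAA in 2 against 12.9%, and the C/EBP letters TTGCNNAA in 1 against 9.2%. Matches are descriptions of the letters and not evidence of binding. The 250 bases are given 5′ to 3′ with the forkhead matches in capitals, and Cyp2f4 is shown as a gene without one.
Scgb1a1 (chr1:215409687-215409936, minus strand): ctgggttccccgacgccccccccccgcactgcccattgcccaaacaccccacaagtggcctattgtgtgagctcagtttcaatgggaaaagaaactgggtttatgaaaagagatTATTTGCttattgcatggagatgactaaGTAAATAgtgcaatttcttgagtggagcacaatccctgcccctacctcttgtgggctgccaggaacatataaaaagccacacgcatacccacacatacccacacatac
Scgb3a1 (chr10:34468916-34469165, plus strand): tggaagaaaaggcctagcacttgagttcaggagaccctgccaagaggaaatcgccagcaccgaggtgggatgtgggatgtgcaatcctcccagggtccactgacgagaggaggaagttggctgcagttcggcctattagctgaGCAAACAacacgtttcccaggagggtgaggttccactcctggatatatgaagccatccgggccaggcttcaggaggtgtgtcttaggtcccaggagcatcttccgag
Bpifa1 (chr3:163087715-163087964, plus strand): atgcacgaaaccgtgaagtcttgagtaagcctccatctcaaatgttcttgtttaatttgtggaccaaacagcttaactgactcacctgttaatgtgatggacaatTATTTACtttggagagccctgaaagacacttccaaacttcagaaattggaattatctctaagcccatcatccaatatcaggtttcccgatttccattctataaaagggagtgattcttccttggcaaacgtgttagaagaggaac
Cyp2f4 (chr1:91543518-91543767, plus strand): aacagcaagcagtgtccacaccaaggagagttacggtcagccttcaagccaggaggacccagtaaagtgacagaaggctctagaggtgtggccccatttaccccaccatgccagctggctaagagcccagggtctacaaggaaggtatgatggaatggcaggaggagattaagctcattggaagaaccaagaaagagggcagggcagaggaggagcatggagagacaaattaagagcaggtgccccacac

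None of the 7 genes was called under silica at 3 months by the test across all genes (edgeR's quasi-likelihood test with Benjamini-Hochberg adjustment, called below 0.05). On the regular diet 0 of 7 were called, against 16.8% of all tested genes, and on the high-fat diet 0 of 7, against 17.4%. On the regular diet all 7 log2 fold changes of silica against air were negative, from -0.64 to -0.14, with SEs of 0.18 to 1.09 and a median of -0.40 (all tested genes, -0.01). Scgb1a1 came nearest to a call, with 1891 CPM with silica and 2606 CPM in air (log2 fold change -0.46 ± 0.18 SE, adjusted p = 0.0821, lower than the air mean in 5 of 5 silica rats). It was called without regular diet air rat 2 (adjusted p = 0.0443) or without regular diet silica rat 1 (adjusted p = 0.0445). On the high-fat diet the values ran from -0.20 for Scgb1a1 to 1.42 for Muc5b, with a median of 0.33 (all tested genes, -0.01). Muc5b had a mean of 47.2 CPM with silica and 17.1 CPM in air (1.42 ± 0.76 SE, adjusted p = 0.228), and 3 of 5 silica rats were above the air mean. Bpifa1 depended on high-fat diet air rat 1: its log2 fold change was 0.87 ± 0.98 SE (adjusted p = 0.615) with that rat and 4.34 (adjusted p = 0.0337) without it. Without high-fat diet silica rat 2 Bpifa1 had -0.18 (adjusted p = 0.939) and Muc5b 0.71 (adjusted p = 0.622).

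The small-airway secretoglobins were lower with silica at 9 months. Scgb3a2 fell on both diets, to 0.619 times the air level on the regular diet (63.1 against 101 CPM, log2 fold change -0.69 ± 0.22 SE, adjusted p = 0.0115, 4 of 5 silica rats below the air mean) and to 0.634 times on the high-fat diet (64.2 against 101 CPM, -0.66 ± 0.21 SE, adjusted p = 0.00972, 6 of 6 rats). Scgb1a1 fell on the high-fat diet to 0.739 times the air level (2541 against 3440 CPM, -0.44 ± 0.14 SE, adjusted p = 0.012, 6 of 6 rats), and on the regular diet had -0.20 ± 0.15 SE (adjusted p = 0.296). Thus 1 of 7 genes was called on the regular diet, against 45.1% of all tested genes, and 2 of 7 on the high-fat diet, against 51.6%, so a member was called no more often than a gene in general. All 7 had overlapping groups in each of the 8 comparisons of groups, and the share of all tested genes without overlap was not computed. These 3 calls and the diet call below were kept whichever single rat was left out (largest adjusted p = 0.045). The ribosomal RNA share moved with silica on the regular diet (1.22% in air and 3.67% with silica), and with that share as a covariate the call of Scgb3a2 there was lost (-0.68, adjusted p = 0.111). On the high-fat diet both calls were kept with that covariate (Scgb3a2 -0.65, adjusted p = 0.0366, Scgb1a1 -0.53, adjusted p = 0.0124).

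The remaining 5 members were not called under silica at 9 months. On the regular diet Muc5b had a mean of 39.3 CPM with silica and 14.7 CPM in air (1.37 ± 0.59 SE, adjusted p = 0.0621), and Bpifa1 16.3 and 3.77 CPM (1.85 ± 0.89 SE, adjusted p = 0.0912). Both values depended on single rats. Without regular diet silica rat 1, the highest of its group for both genes, Muc5b had 0.46 (adjusted p = 0.534), Bpifa1 0.56 (adjusted p = 0.661) and Scgb3a1 -0.10 (adjusted p = 0.924). Without regular diet air rat 4 Muc5b was called at 1.93 (adjusted p = 0.0167) and Bpifa1 at 3.64 (adjusted p = 0.0103). Without regular diet silica rat 2 they were called at 1.57 (adjusted p = 0.0418) and 2.16 (adjusted p = 0.0469), and without regular diet silica rat 4 Muc5b at 1.62 (adjusted p = 0.0313). Agr2, at -0.47 ± 0.33 SE (adjusted p = 0.263), was called at -0.94 (adjusted p = 0.0188) without regular diet silica rat 1, the highest rat of that group for Agr2. On the high-fat diet Muc5b had 42.0 CPM with silica and 37.2 CPM in air (0.12 ± 0.52 SE, adjusted p = 0.865), and Cyp2f4 38.2 and 59.7 CPM (-0.64 ± 0.32 SE, adjusted p = 0.0921). Cyp2f4 was called in a fit of only these 2 groups (adjusted p = 0.0263) and without high-fat diet air rat 4 (-0.77, adjusted p = 0.0464).

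Scgb1a1 was higher on the high-fat diet in air at 9 months, with 3440 against 2345 CPM (1.47-fold, log2 fold change 0.55 ± 0.14 SE, adjusted p = 0.00905, 6 of 6 high-fat rats above the regular diet mean). It was the 1 of 7 members called, against 15.2% of all tested genes. The ribosomal RNA share moved with this comparison (1.22% on the regular diet and 6.22% on the high-fat diet), and with that share as a covariate the value for Scgb1a1 was 0.22 (adjusted p = 0.94) and 1 gene of all those tested was called. Diet and that share cannot be told apart there. Muc5b (1.32 ± 0.57 SE, adjusted p = 0.119), Scgb3a1 (1.48 ± 0.67 SE, adjusted p = 0.14) and Cyp2f4 (0.64 ± 0.31 SE, adjusted p = 0.171) were also higher in mean and did not pass. Without regular diet air rat 4 Muc5b (1.89, adjusted p = 0.0338) and Scgb3a1 (2.21, adjusted p = 0.0405) passed. Without high-fat diet air rat 3, the highest of its group for both, they had 0.76 (adjusted p = 0.4) and 1.11 (adjusted p = 0.316). Among silica rats at 9 months 0 of 7 were called, against 3.52% of all genes, with values from -1.34 (Bpifa1) to 0.58 (Scgb3a1). At 3 months 0 of 7 were called in air, against 2.95%, and 0 of 7 with silica, against 0.702%.

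**Figure D3:**
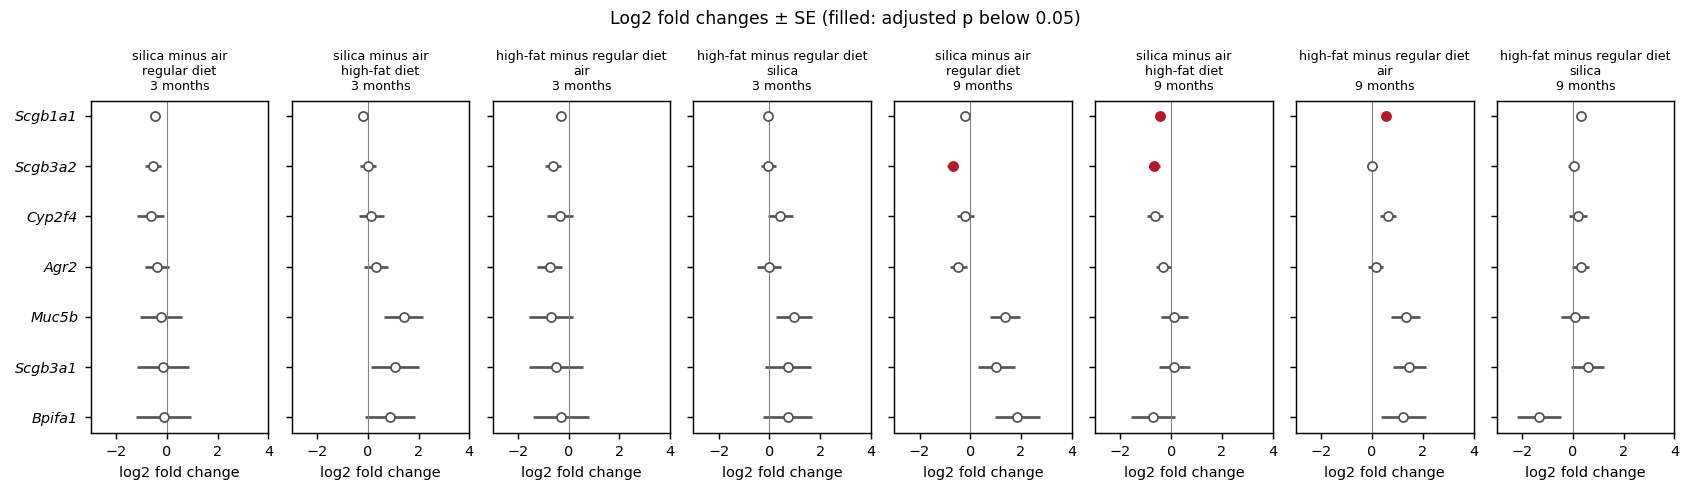
Log2 fold changes (x axis) with SEs for 7 airway genes in the 4 silica and 4 diet comparisons, filled red where the adjusted p was below 0.05. Red points are Scgb3a2 under silica on both diets at 9 months, and Scgb1a1 under silica on the high-fat diet and under the high-fat diet in air.

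The silica effect did not differ detectably between diets or times for any of the 7 genes at this spread. The difference between the 2 silica effects (high-fat minus regular) was called for 0 of 7 at 3 months, where 0% of all genes passed (0 by edgeR and 1 by DESeq2, while 990 of the 15234 tested genes had an unadjusted p below 0.05 in edgeR), and for 0 of 7 at 9 months, where 1.09% passed. The widest value at 9 months was that of Bpifa1, -2.57 ± 1.24 SE (adjusted p = 0.347). For Scgb3a2 it was 0.03 ± 0.30 SE and for Scgb1a1 -0.24 ± 0.20 SE (adjusted p = 0.978 and 0.653). The 9-month minus the 3-month silica effect was called for 0 of 7 on the regular diet, against 6.78% of all genes, and for 0 of 7 on the high-fat diet, against 10.7%. Scgb3a2 had -0.15 ± 0.40 SE on the regular diet and -0.66 ± 0.38 SE on the high-fat diet (adjusted p = 0.876 and 0.285).

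All 7 genes rose and fell across rats with the markers of ciliated cells, which line the same airways. The ciliated level was the mean log2 CPM of the 24 tested genes of the ciliated list (dynein arms and other parts of the ciliary axoneme, and their regulators), and both measures were taken as deviations from the group mean. At 3 months, over 19 rats, r was 0.978 for Agr2, 0.961 for Scgb3a2, 0.955 for Cyp2f4, 0.945 for Scgb1a1, 0.939 for Scgb3a1, 0.938 for Muc5b and 0.770 for Bpifa1, with Spearman's rho from 0.761 to 0.979. All 7 passed the permutation test within groups after adjustment over the 26 relations computed (largest adjusted p = 0.00017). How many of all tested genes would pass was not computed, so the relation is not shown to be particular to these genes. Summed smooth muscle markers at 3 months were also highest in regular diet silica rat 1, high-fat diet air rat 1 and high-fat diet silica rat 2. In regular diet air they were highest in rat 4. At 9 months, over 23 rats, r was 0.929 for Scgb3a2, 0.907 for Cyp2f4, 0.872 for Scgb1a1, 0.855 for Agr2, 0.729 for Scgb3a1, 0.622 for Muc5b and 0.517 for Bpifa1, with rho from 0.495 to 0.897 and a largest adjusted permutation p of 0.0371. The smallest unadjusted p that these permutations can give is 1e-05. Without the 2 rats farthest from the median ciliated level, r stayed between 0.709 and 0.968 at 3 months. At 9 months it lay between 0.427 and 0.889, and Bpifa1 no longer passed (r = 0.427, adjusted permutation p = 0.0744). With a prior count of 0.5 and all 23 rats Bpifa1 did not pass either (r = 0.462, adjusted permutation p = 0.0584), so its call depended on those rats and on the prior count.

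The genes differed in how steeply they followed. A slope is r times the ratio of the gene's SD to that of the ciliated level. The order of slopes thus repeats that of the SDs above, apart from Scgb3a1 and Bpifa1, and is not a separate result. For each log2 unit of ciliated level, Scgb1a1 changed by 0.74 log2 units at 3 months and 0.75 at 9 months, Scgb3a2 by 1.34 and 1.21, Agr2 by 2.02 and 1.75, and Cyp2f4 by 2.41 and 1.90. Muc5b changed by 3.59 and 2.06, Bpifa1 by 5.12 and 3.10, and Scgb3a1 by 5.24 and 3.16. The secretoglobins Scgb1a1 and Scgb3a2 thus had the shallowest slopes at both times, and Scgb3a1 and Bpifa1 the steepest. Cyp2f4, also a gene of club cells, was steeper than Agr2 at both times. With Scgb1a1 itself on the x axis, all 6 other genes passed at 3 months (r = 0.663 to 0.957, largest adjusted permutation p = 0.00392). At 9 months 3 passed, Scgb3a2 (r = 0.775), Cyp2f4 (0.761) and Agr2 (0.739), and 3 did not, Scgb3a1 (0.476, adjusted permutation p = 0.0524), Bpifa1 (0.422, 0.0928) and Muc5b (0.325, 0.201). All of these relations are within time points, and the share of all tested genes that would pass them was not computed. The labels named no batch.

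**Figure D4:**
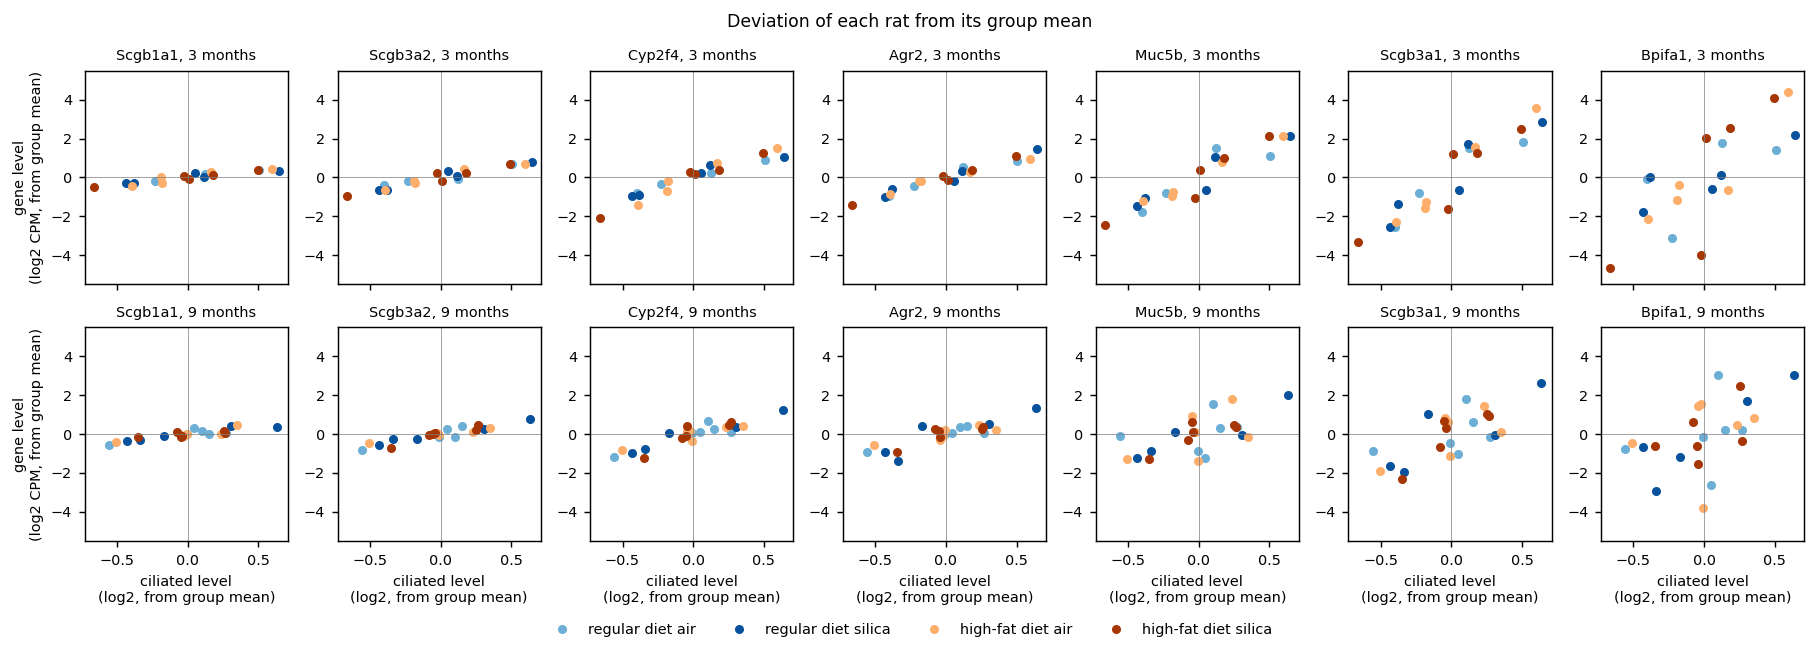
Deviation of each rat from its group mean for 7 airway genes (y axis, log2 CPM) against that of the ciliated level (x axis, log2), at 3 months (top, 19 rats) and 9 months (bottom, 23 rats). Slopes at 3 months run from 0.74 (Scgb1a1) to 5.24 (Scgb3a1).

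The ciliated level was also lower with silica at 9 months. Its group means were 5.10 ± 0.40 (SD, n = 4) in regular diet air, 4.68 ± 0.44 (n = 5) in regular diet silica, 4.74 ± 0.39 (n = 5) in high-fat diet air and 4.70 ± 0.42 (n = 5) in high-fat diet silica at 3 months. At 9 months they were 4.96 ± 0.29 (n = 6), 4.47 ± 0.46 (n = 5), 5.18 ± 0.29 (n = 6) and 4.63 ± 0.23 (n = 6) in the same order. Of the 24 tested ciliated genes, 14 fell under silica at 9 months in rats on the regular diet (median log2 fold change -0.46) and 21 in those on the high-fat diet (median -0.56), none rose on either diet, and 0 were called on either diet at 3 months. Of all tested genes at 9 months, 20.6% were called lower and 24.5% higher on the regular diet, and 24.9% lower and 26.7% higher on the high-fat diet. Examples on the regular diet were Mlf1 (-0.92 ± 0.20 SE) and the axonemal genes Drc1 (-0.73 ± 0.19 SE) and Dnah11 (-0.46 ± 0.14 SE), and on the high-fat diet Dnah11 (-0.55 ± 0.13 SE), Ccdc39 (-0.66 ± 0.16 SE), also of the axoneme, and Tmem212 (-0.86 ± 0.20 SE). Beside these medians, Scgb3a2 had -0.69 on the regular diet and -0.66 on the high-fat diet, and Scgb1a1 -0.44 on the high-fat diet. The other members did not all go this way. On the regular diet Scgb1a1 (-0.20), Cyp2f4 (-0.20) and Agr2 (-0.47) were lower, and Muc5b (1.37), Bpifa1 (1.85) and Scgb3a1 (1.02) higher. None of these was called, and a common source of the falls was not tested.

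With the ciliated level as a covariate, the calls turned over. For silica at 9 months Scgb3a2 then had -0.13 (adjusted p = 0.344, regular diet) and -0.03 (adjusted p = 0.858, high-fat diet), and Scgb1a1 -0.01 (adjusted p = 0.958, high-fat diet), so no member was called lower. The genes called instead were higher. On the regular diet at 9 months they were Muc5b (2.25, adjusted p = 0.000761), Bpifa1 (2.94, adjusted p = 0.00323), Scgb3a1 (2.18, adjusted p = 0.00384) and Cyp2f4 (0.59, adjusted p = 0.0118), 4 of 7, while 5390 of all 15276 tested genes were called in that fit in either direction. On the high-fat diet they were Scgb3a1 (1.82, adjusted p = 0.00816), Muc5b (1.49, adjusted p = 0.0168) and Agr2 (0.61, adjusted p = 0.0221), 3 of 7. That was close to the share of all genes called in that fit, 6080 of 15276. At 3 months the covariate gave 3 of 7 on the high-fat diet, Muc5b (1.65, adjusted p = 0.000376), Scgb3a1 (1.69, adjusted p = 0.00419) and Agr2 (0.43, adjusted p = 0.0305), beside 3042 of all 15234 tested genes, and Scgb3a1 alone on the regular diet (1.49, adjusted p = 0.0321), beside 1898 of 15234. Shares of all genes called higher alone were not computed for these fits. The ciliated level was itself lower with silica at 9 months, so a loss shared by both cell types and a smaller amount of airway cannot be told apart. Scgb1a1 under the high-fat diet in air was still the 1 member called with this covariate.

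**Figure D5:**
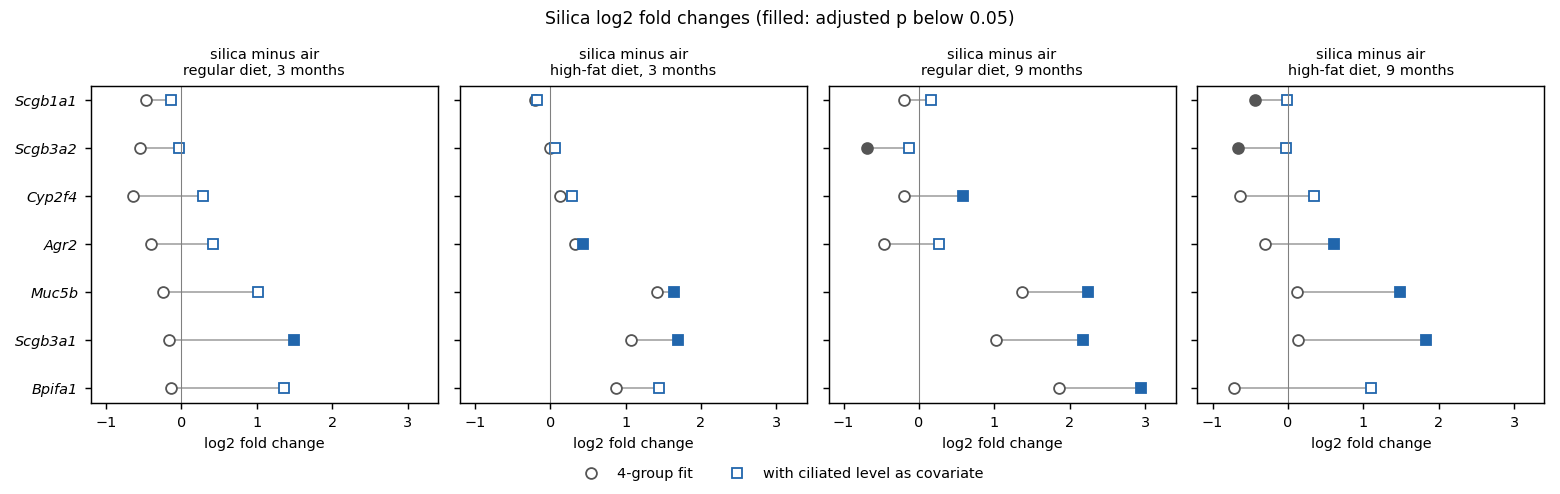
Log2 fold change of silica against air (x axis) for 7 airway genes in the 4-group fit (circles) and with the ciliated level as a covariate (squares), filled where the adjusted p was below 0.05. At 9 months Scgb3a2 moved from -0.69 to -0.13 on the regular diet and Muc5b from 1.37 to 2.25.

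Other genes of secretory cells changed under silica in both directions. Of 18 tested genes on a further club cell list of 24, 4 were higher and 10 lower on the regular diet at 9 months, and 4 higher and 9 lower on the high-fat diet, beside 24.5% higher and 20.6% lower, and 26.7% and 24.9%, of all tested genes. The P450 Cyp4b1 fell on both (-0.75 ± 0.07 SE, adjusted p = 9.76e-10, and -0.69 ± 0.06 SE, adjusted p = 9.29e-10), as did Sec14l3 on the regular diet (608 against 1090 CPM). The claudin Cldn10 (1.27 ± 0.11 SE) and Slc16a11, of the monocarboxylate transporter family, (1.48 ± 0.11 SE) rose on the high-fat diet. At 3 months 3 were higher and 5 lower on the regular diet and 4 higher and 6 lower on the high-fat diet, where 10.2% and 6.6%, and 9.23% and 8.19%, of all tested genes were called higher and lower. The list's median at 9 months was -0.46 and -0.42, against 0 over all tested genes.

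Of 12 tested genes on a goblet and mucus list of 20, 7 were higher and 1 lower on the regular diet (median 0.54) and 6 higher and 1 lower on the high-fat diet (median 0.43) at 9 months, where 45.1% and 51.6% of all tested genes were called in either direction, with a median of 0. At 3 months it was 3 and 0 on the regular diet, and 3 and 1 on the high-fat diet. The shares of all tested genes called higher and lower were then 10.2% and 6.6%, and 9.23% and 8.19%. The smallest p-values belonged to Pigr, the receptor that carries polymeric immunoglobulin across epithelia (1.11 ± 0.07 SE and 1.35 ± 0.07 SE at 9 months), the sialyltransferase St6gal1 (0.63 ± 0.06 SE on both diets) and Bpifb1, a secreted relative of Bpifa1. Bpifb1 had 88.8 CPM with silica against 4.64 CPM in air on the regular diet (4.17 ± 0.39 SE, adjusted p = 3.28e-09) and 98.0 against 9.40 CPM on the high-fat diet (3.35 ± 0.34 SE, adjusted p = 9e-09), and it stands on the club cell list too. All 3 are also made outside goblet cells, and the goblet peptides Tff1 and Tff2 were at 0 counts in all 8 groups. The membrane-bound mucins Muc1 (1.67 ± 0.10 SE and 1.83 ± 0.09 SE), Muc4 (2.98 ± 0.31 SE and 2.87 ± 0.29 SE) and Muc20 (2.94 ± 0.28 SE and 1.88 ± 0.23 SE) rose on both diets, where Muc5b did not pass. Of the 6 tested genes of that list, 3 were called higher and 3 lower on each diet at 9 months. The 3 lower genes are not named here, and the list of 10 also held Mcam, Emcn, Muc2 and Muc19. Among all tested genes, 24.5% were called higher and 20.6% lower on the regular diet, and 26.7% and 24.9% on the high-fat diet.

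Among 15 tested transcription factors and regulators of secretory cells, 7 were higher and 5 lower on the regular diet at 9 months and 9 higher and 3 lower on the high-fat diet, so 12 of 15 were called on each diet against 45.1% and 51.6% of all tested genes. The epithelial factors Elf3 (1.33 ± 0.10 SE and 1.68 ± 0.09 SE), Ehf (0.81 ± 0.08 SE and 0.93 ± 0.07 SE) and Cebpa (0.60 ± 0.07 SE and 0.80 ± 0.07 SE) rose on both. Bulk tissue does not show whether secretory cells or other cells of the lung gave these values. Of 12 tested cytokines, receptors and mediators that drive mucus, 7 were higher and 2 lower on the regular diet, and 8 higher and 3 lower on the high-fat diet, against the same shares. The alarmin Il33 fell (-0.74 ± 0.08 SE and -0.62 ± 0.08 SE), and the receptor Il17ra rose (0.40 ± 0.05 SE and 0.45 ± 0.05 SE). The next smallest p-values were those of the cytokines Il1b on the regular diet (0.83 ± 0.17 SE) and Tslp on the high-fat diet (-1.14 ± 0.22 SE). Markers of other cells moved in the same libraries at 9 months. All 8 tested macrophage genes were higher on both diets, 7 and 8 of 10 alveolar type 2 genes were higher, and 7 and 9 of 10 smooth muscle genes were lower, against the 24.5% and 26.7% higher and 20.6% and 24.9% lower among all genes. The summed macrophage level was 837 to 1250 CPM in regular diet air and 2330 to 3130 CPM in regular diet silica, and 579 to 773 and 2160 to 2970 CPM on the high-fat diet. Its part in the values of the airway genes was not tested.

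The genes whose rat-to-rat pattern was most like that of Scgb1a1 were ciliated genes or genes on none of the lists. Likeness was the smaller of the r values at 3 months (19 rats) and 9 months (23 rats), among 12329 genes. The 8 closest were Spag17 (0.917), Lrriq1 (0.908), Vwa3a (0.905), Fam227a (0.904), Hydin (0.900), Dlec1 (0.878), Dnai1 (0.877) and Lrguk (0.876), of which Spag17, Hydin and Dnai1 are on the ciliated list. For Muc5b they were Clca1, a goblet cell protein (0.878), Gabrp (0.798), Chst9 (0.789), Cyp2a3 (0.771), Efcab6 (0.760), Clic6 (0.755), T2 (0.753) and Dnai2 (0.747). Here Gabrp and Cyp2a3 are on the club cell list, Clca1 on the goblet list and Dnai2 on the ciliated list.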

How the data were processed

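Raw read counts per gene symbol, 1 column per rat and 1 table per time point, were deposited by the authors. The submitters' processing notes name HTSeq 0.6.1 and the build Rnor_6.0, with TopHat2 2.0.9 and Bowtie2 2.2.9, the tools Trimmomatic 0.35 and bcl2fastq 2.19, and SAMtools 0.1.19. The strand setting and annotation are not given in the sources used here, so counts of overlapping or near-identical genes, such as the P450 family of Cyp2f4, are uncertain. Groups came from the labels and columns from their animal tags. Replicates are separate rats, and no 2 libraries agreed within sampling noise.

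Genes were filtered with filterByExpr of edgeR 4.0.16 (R 4.3.3), scaled by TMM and tested with its quasi-likelihood test (legacy=FALSE, 1 fit per time point over its 4 groups, all 8 for the change with time). Benjamini-Hochberg adjustment ran over all tested genes, and genes below 0.05 were called. SEs are those implied by the F statistic. Ciliated relations used log2 CPM (prior count 2) and 100000 permutations within groups. Muc5ac failed the filter, so 26 relations were computed in place of the 30 planned. Alternatives were RLE size factors, no filter, DESeq2 1.42.0, legacy quasi-likelihood, only the compared groups, a prior count of 0.5, the ribosomal RNA share or ciliated level as covariate, and leaving out each rat. The pipeline was tested on simulated data.

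Members and lists were chosen with earlier results of these data known. The text names all 8 members, the 3 smallest p-values of a list described, and the 8 genes most like Scgb1a1 and Muc5b (mean log2 CPM of at least 1). Promoters are from RefSeq.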

Additional observations from a re-analysis of the deposited data

Results flagged for a closer look

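Of 56 combinations of a group and a member, 4 held a rat that stood apart from the others of its group on the log2 CPM scale by Dixon's test at its 95% level. Chance alone gives about 1 in 20. In high-fat diet air at 3 months, rat 1 was highest for Bpifa1 with 98.1 CPM, and the other 4 rats had 0.761 to 3.28 CPM. The other three were all regular diet air rat 5 at 9 months, which was lowest. It had 1576 CPM of Scgb1a1 (the other rats 2306 to 2859), 15.5 CPM of Cyp2f4 (the others 36.2 to 56.6) and 4.53 CPM of Agr2 (the others 9.02 to 11.9). That rat was also lowest of its group for Scgb3a2, with 54.8 CPM.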

How the results depend on the processing

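The legacy quasi-likelihood setting, RLE scaling, the Wald test of DESeq2 and testing without the low-count filter left each of the 84 member values tested per setting on its side of the threshold. With the ribosomal RNA share as covariate, 0 members were called for diet in air at 9 months, and under silica on the regular diet Scgb3a2 (-0.68, adjusted p = 0.111) lost its call and Muc5b (2.04, adjusted p = 0.0482) gained one. With the ciliated level as covariate, silica at 3 months had 1 member called on the regular and 3 on the high-fat diet, and at 9 months 4 on the regular diet and 3 on the high-fat diet. Under it Scgb3a1 (regular diet, 3 months, 1.49), Cyp2f4 (regular diet, 9 months, 0.59) and Agr2 (high-fat diet, 9 months, 0.61) changed sign. The cause was not tested. Leaving out 1 rat gave 0 to 1 members called for silica at 3 months on either diet, 1 to 3 at 9 months for silica on the regular diet and for diet in air, and 2 to 3 for silica on the high-fat diet. It gave 0 in every other comparison. Values uncalled both ways changed sign 83 times when 1 rat was left out and 29 times otherwise. No paired analysis was possible because animal tags were not shared between groups.

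Counts over all genes moved by over 1.5 times in these cases. Diet in air at 3 months had 449 calls, 730 with DESeq2, 761 with only the 2 groups and 92 with the ribosomal covariate. Diet under silica at 3 months had 107, 227 with DESeq2, 59 with only the 2 groups and 223 with the ciliated covariate. With the ribosomal covariate diet at 9 months went from 2327 to 1 in air and from 537 to 1 with silica, silica on the regular diet from 6886 to 4559, and its change with time from 1068 to 284 (471 with only those groups). The diet difference in silica effects at 9 months went from 167 to 348 with DESeq2. Low counts limit Bpifa1 and Muc5ac.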
